A study of Triticum aestivum with 4 samples.

Results

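The regions described here are the TaCCA1-7D binding peaks on chromosomes 3A, 3B and 3D of bread wheat, which together form homoeologous group 3. They were taken from the deposited peak list by the chromosome name alone, and they number 72003 of 467343 peaks (15.4%). The other 18 named chromosomes hold 388127 peaks, and 7213 peaks on unplaced scaffolds were set aside. The experiment was DNA affinity purification sequencing (DAP-seq), in which sheared genomic DNA is offered to a tagged transcription factor on beads and the retained fragments are sequenced. The bait was TaCCA1-7D fused to maltose-binding protein (MBP), and the DNA came from leaves of 2-weeks-old seedlings of the cultivar Fielder. There were 2 CCA1 libraries and 2 input libraries, and every library came from the same cultivar and tissue with no other treatment. The assay uses bare DNA in a tube, so it reports where the protein can bind and carries no chromatin and no time of day.

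CCA1 (CIRCADIAN CLOCK-ASSOCIATED 1) is a MYB-type DNA-binding protein of the plant circadian clock that accumulates around dawn and represses evening-expressed genes. In Arabidopsis it binds the evening element and related AT-rich sites in the promoters of its targets. Bread wheat carries A, B and D subgenomes, so most genes occur on 3 homoeologous chromosomes. Each group of homoeologues shares gene content and order, while the repeats between the genes differ. Wheat genes related to GIGANTEA and LUX, clock genes expressed toward evening, lie on group 3, and 3B is the longest wheat chromosome.

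A single peak list was used, and it gives no value for each library. No spread between replicates could therefore be computed. Intervals given below are 95% intervals that cover counting error only. Tests over chromosomes describe this list, because chromosomes measured in the same libraries are not replicates of the experiment. Coordinates are those of the authors' Ensembl wheat genome and are counted from 1.

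The study chose 1 gene on group 3 for binding tests in a tube with synthetic DNA. It was TraesCS3B02G186700 on chromosome 3B, which encodes a component of photosystem II, the complex that splits water in photosynthesis. The oligonucleotides are shown because they carry the kind of site that the bait was tested on, with a mutated partner. In the first of the lines below, capitals mark a match to DRATATCH (where D is any base but C, R is A or G, and H is any base but G), and in the second they mark the 5 mutated bases.

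DAP4-R: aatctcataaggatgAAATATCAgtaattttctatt

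DAP4-M_R: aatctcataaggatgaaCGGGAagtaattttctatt

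The wild-type strand holds AATATC, the core of the evening element, in 1 place, and the mutated strand holds no copy. Where this DNA lies relative to the 3B peaks was not analysed here, since positions of genes in the authors' assembly were not at hand.

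On the named chromosomes, the share of peaks on group 3 matched its share of the length. Chromosome 3A held 25560 peaks, 3B held 26493 and 3D held 19950. Up to the last peak, the chromosomes were 750.7 Mb (3A), 830.8 Mb (3B) and 615.5 Mb (3D) long. Group 3 thus made up 15.6% of the peaks on named chromosomes and 15.6% of their length. Its peaks covered 1.75% of 3A, 1.65% of 3B and 1.68% of 3D.

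Peak density was highest on 3A, at 34.0 peaks per Mb (exact Poisson interval 33.6 to 34.5). It was 31.9 on 3B (31.5 to 32.3) and 32.4 on 3D (32.0 to 32.9). The interval of 3A lay above the other two, while those of 3B and 3D overlapped. The difference of 2.16 peaks per Mb between 3A and 3B was the largest A-to-B difference among the 7 homoeologous groups, and the 3A-to-3D difference of 1.63 ranked second. Within its subgenome, 3A was the second densest A chromosome, 3B the sixth densest B chromosome and 3D the third densest D chromosome. Densities of the other 18 chromosomes ran from 31.3 to 34.4 peaks per Mb. Group 3 averaged 32.8 ± 1.13 peaks per Mb (SD, n = 3 chromosomes) and the other chromosomes 32.7 ± 0.829 (SD, n = 18). The difference of 0.112 was smaller than either spread (exact two-sided permutation test of chromosomes within subgenomes, p = 0.802, adjusted p = 0.902). Here and below, adjusted p-values are Benjamini-Hochberg values over the 9 measures compared in this way, and the smallest unadjusted p this design allows is 0.00292.

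**Figure D1:**
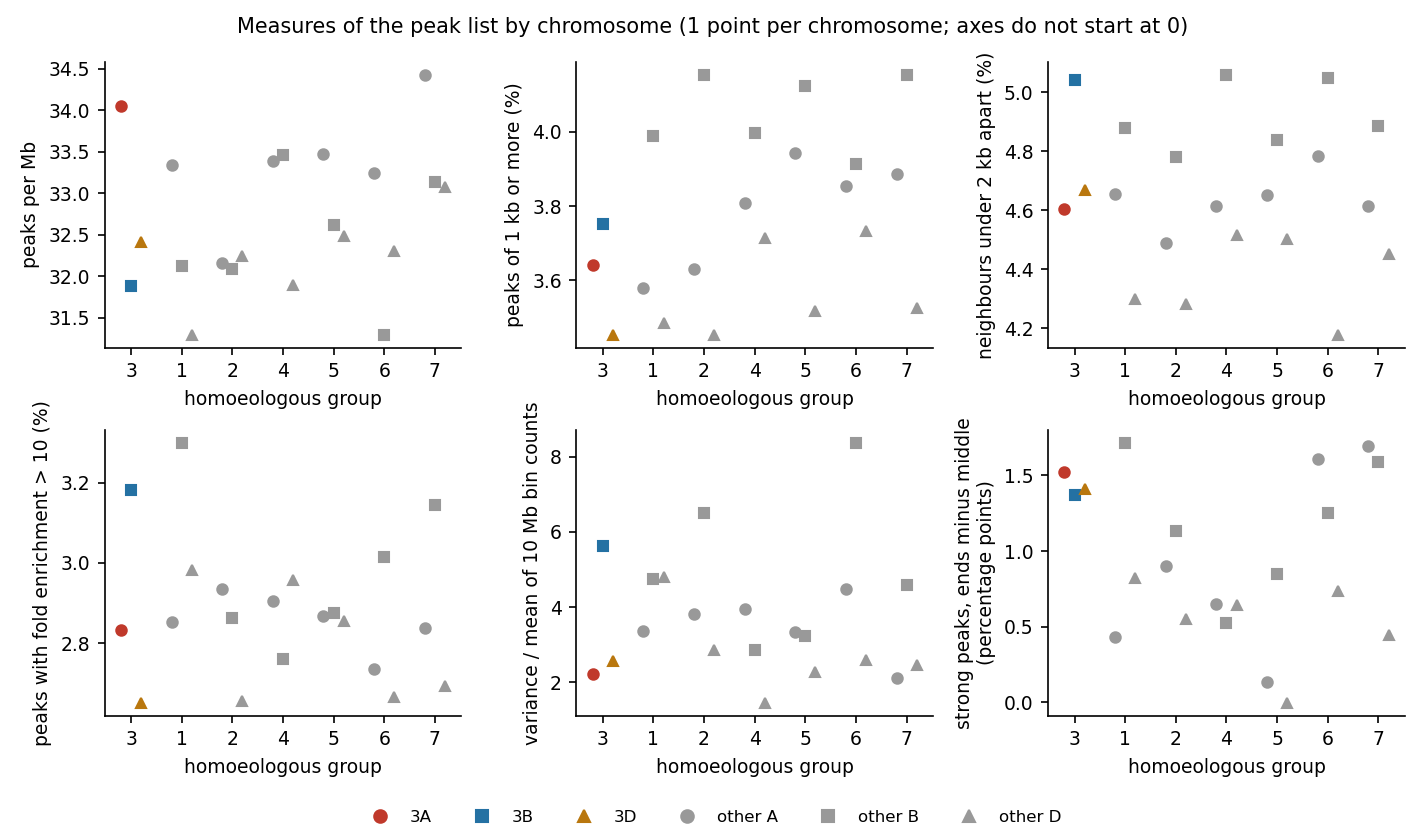
Each point is 1 chromosome, placed by homoeologous group on the horizontal axis with group 3 at the left. The panels show peaks per Mb, the percentage of peaks of 1 kb or more, the percentage of neighbouring peaks under 2 kb apart, the percentage of peaks with a fold enrichment above 10, the variance over the mean of peak counts in 10 Mb bins, and the share of such strong peaks at the chromosome ends minus that in between. 3A, 3B and 3D are coloured and lie within or close to the range of the grey chromosomes in every panel.

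Along the chromosomes, most 10 Mb bins held close to the same number of peaks. The median bin had 34.3 peaks per Mb on 3A (75 full bins), 32.2 on 3B (83 bins) and 32.6 on 3D (61 bins). Bins within 25% of that median numbered 74 of 75 on 3A, 76 of 83 on 3B and 60 of 61 on 3D. The sparsest full bin of 3A was 310–320 Mb with 23.7 peaks per Mb, and its densest was 200–210 Mb with 40.1. On 3D the sparsest was the first bin, 0–10 Mb, with 21.1 peaks per Mb, and the densest was 580–590 Mb with 39.3. Chromosome 3B spanned the widest range, with 14.2 peaks per Mb at 510–520 Mb and 42.7 at 800–810 Mb.

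The bins varied more than counting alone would give, most of all on 3B. The SD of the peak count per bin was 27.4 on 3A, 42.4 on 3B and 28.9 on 3D. Poisson counts with the same means would have SDs between 17.8 and 18.5. The variance over the mean was 2.21 for 3A, 5.63 for 3B and 2.57 for 3D, against 1.45 to 8.37 on the other 18 chromosomes. Averaged over group 3 it was 3.47 ± 1.88 (SD, n = 3), and 3.77 ± 1.67 elsewhere (SD, n = 18). This difference of −0.29 did not pass the exact permutation test (p = 0.732, adjusted p = 0.902). Without the bin at 510–520 Mb, the value of 3B was 4.45.

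**Figure D2:**
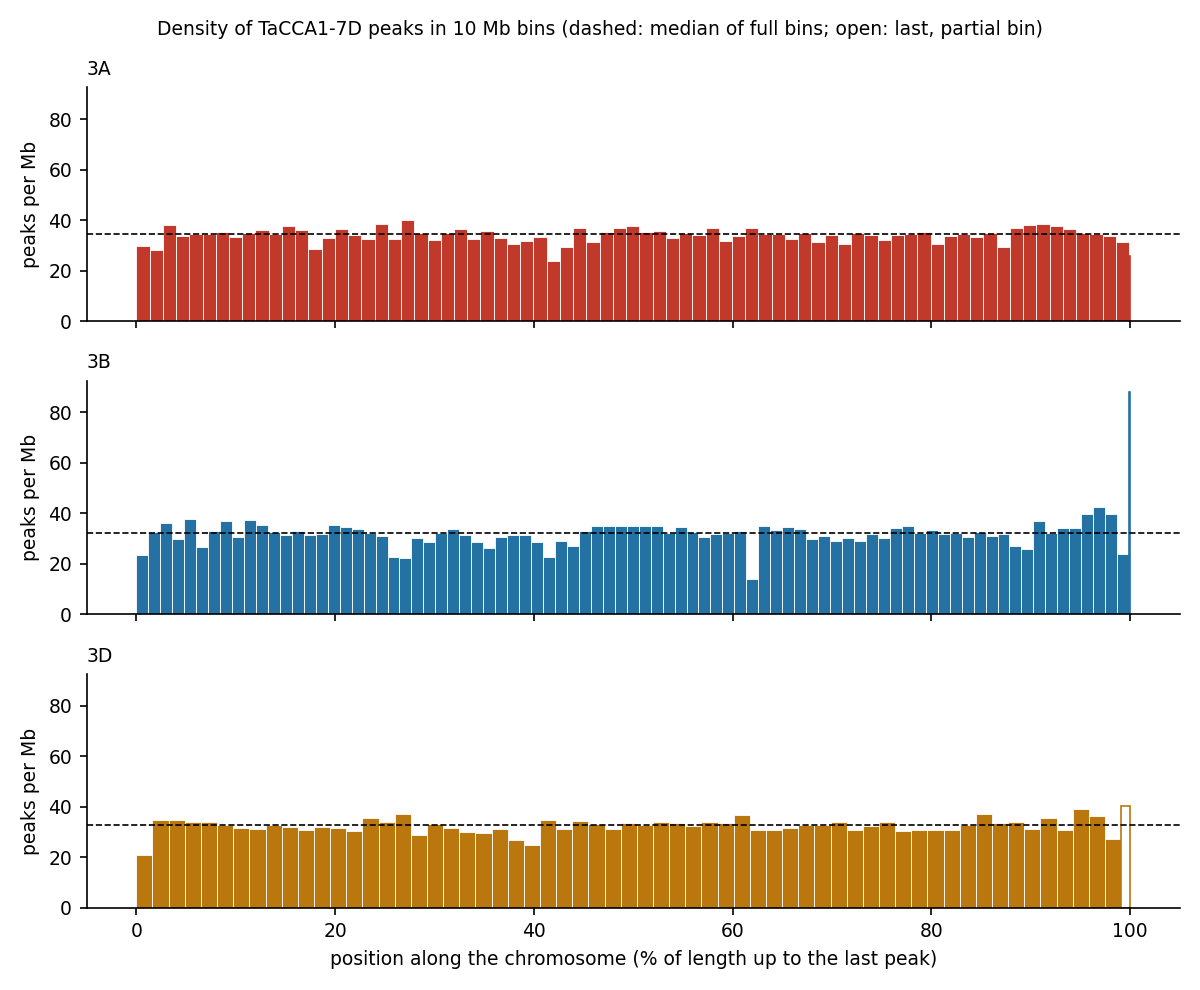
Bars give TaCCA1-7D peaks per Mb in 10 Mb bins along 3A, 3B and 3D, against position as a percentage of chromosome length, measured to its last peak. Dashed lines mark the median of the full bins (34.3, 32.2 and 32.6 peaks per Mb) and the last bin of each chromosome is only part of 10 Mb, so the tall bar at the end of 3B rests on 73 peaks.

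In the full list, profiles of the 3 homoeologues showed little common shape. Each chromosome was cut into 50 equal fractions and the densities were correlated across them, which shares libraries and lengths, so the values are descriptions. Pearson's r was 0.125 for 3A with 3B (Spearman's rho 0.101), 0.324 for 3A with 3D (rho 0.156) and 0.103 for 3B with 3D (rho −0.0067). The 18 other pairs of homoeologues had a median r of 0.0821, with a range of −0.351 to 0.389. Pairs from different groups, 189 in all, had a median r of 0.0300. When only peaks with a false discovery rate (FDR) below 1e-10 were counted, r was 0.495 for 3A with 3B, 0.386 for 3A with 3D and 0.305 for 3B with 3D. The other homoeologous pairs then had a median r of 0.0854 and a range of −0.122 to 0.634, and the 189 pairs from different groups a median of 0.153. The median thus was higher at this limit for group 3 and for pairs from different groups, and changed little for the other homoeologous pairs.

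One stretch of 3B was nearly empty of peaks. It and the other local features in the next paragraphs, apart from the named extreme bins and distances, were singled out after their values had been seen. From 514 to 520 Mb there were 16 peaks in 6 Mb, or 2.67 per Mb (exact Poisson interval for the count 9.15 to 26.0). The 6 Mb on each side together held 398 peaks in 12 Mb, or 33.2 per Mb, which is 12.4 times the density of the stretch. Of its 1 Mb bins, 2 of 6 held no peak, and the last held 8. The longest distance between neighbouring peaks on group 3 lay inside it, 1610355 bp from 517798856 to 519409210. Only 3 distances on the named chromosomes were longer.

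Fold enrichment is the pileup, the number of aligned tags that overlap a peak's summit, over the local background, with 1 added to both. Among the 16 peaks of this stretch, 4 had a fold enrichment above 10 (25.0%, Wilson interval 10.2 to 49.5%), against 12 of 398 (3.02%) in its flanks and a background of 2.89% on the other 18 chromosomes. The strongest of the 4, at 515935405–515935817, had a fold enrichment of 23.6 from 58 tags. The background at the summit was at its lowest value, 0.621 tags, in 6 of the 16 peaks, against 22.5% of all 3B peaks. The part of this low background in the share of strong peaks was not tested. The peak caller numbers every peak that it calls, so the numbers left in the list also show those that failed the authors' limits. If every number was given once, the stretch held 52 called peaks (8.67 per Mb), against 78.3 per Mb in the flanks.

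**Figure D3:**
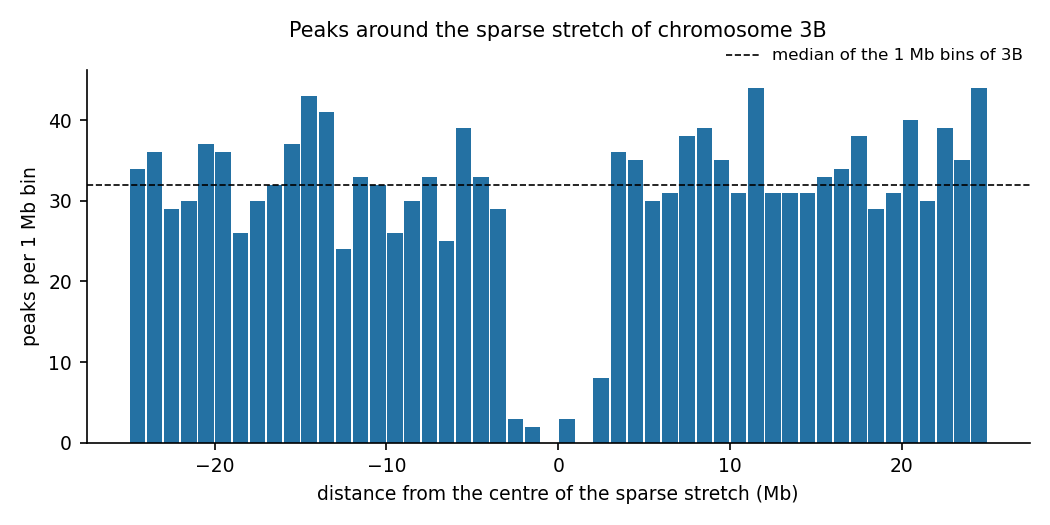
Bars give the number of peaks in each 1 Mb bin of 3B, against distance in Mb from the centre of the stretch at 514–520 Mb. The dashed line is the median of the 1 Mb bins of 3B (32 peaks), and the 6 central bins together hold 16 peaks.

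Sparse bins were not more common on group 3 than elsewhere. Full 1 Mb bins with fewer than 10 peaks numbered 3 on 3A, 13 on 3B and 5 on 3D, or 21 of 2195 (0.957%). The other 18 chromosomes had 137 of 11858 (1.16%). As an uninterrupted run, the 6 bins of 3B were exceeded only by runs of 12 bins on 6B and 7 bins on 2B. On 3D, 4 of the 5 sparse bins were its first 4 Mb, which held 28 peaks (7.00 per Mb). On 3A the longest run was 2 bins at 318–320 Mb with 12 peaks, inside its sparsest 10 Mb bin. Of the 10 Mb bins, 1 of 3B and 1 of 3D fell under 2/3 of the median of their chromosome, and none of 3A did, against a background of 1.53% of the bins on the other chromosomes.

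Chromosome tips differed among the homoeologues. The first 1 Mb held 56 peaks on 3A, 23 on 3B and 7 on 3D, against 15 to 48 on the other 18 chromosomes. The first 10 Mb bin reached 0.869 of the chromosome's median on 3A, 0.733 on 3B and 0.647 on 3D. The values of 3B and 3D were the lowest of the 7 chromosomes of their subgenomes, and below the range of 0.777 to 1.31 on the other 18. At the far end, the last 1 Mb before the last peak held 27 peaks on 3A, 85 on 3B (exact Poisson interval 67.9 to 105.1) and 35 on 3D, against 10 to 48 elsewhere.

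The peaks of the last 1 Mb of 3B, at 829828789–830828789, also differed in kind from the rest of that chromosome. Their median width was 354 bp, against 481 bp in the rest of 3B, and none was 1 kb or wider, against a background of 3.82% on the other 18 chromosomes. The median distance between them was 7272 bp, against 20853 bp. The pileup was 20 or more for 36 of 85 (42.4%, Wilson interval 32.4 to 53.0%), against 8.52% in the rest of 3B and a background of 8.04% on the other 18 chromosomes. The local background at the summit exceeded 2 tags for 43.5% of them, against 7.96%. A fold enrichment above 10 was reached by 7 of 85 (8.24%, Wilson interval 4.05 to 16.0%), against 3.17%. Both signal and background were thus high there. The part of the background in the other differences was not tested. Width, background and fold enrichment were not compared with those at other chromosome ends.

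Peak width hardly varied between the homoeologues. Median widths were 479 bp on 3A, 480 bp on 3B and 482 bp on 3D, and the middle 50% of peaks spanned 325 to 660 bp on 3A, 327 to 665 bp on 3B and 331 to 660 bp on 3D. The narrowest peaks were 176 bp on each chromosome. The 3B median was the lowest among B chromosomes, whose other medians ran from 486 to 492 bp. Over group 3, the median width averaged 480.3 ± 1.53 bp (SD, n = 3), and 483.1 ± 5.38 bp on the other chromosomes (SD, n = 18). The difference of −2.72 bp was not beyond the spread (exact permutation test, p = 0.190, adjusted p = 0.426). By 10 Mb bin, median widths ran from 421 to 515 bp on 3A, from 421 to 525 bp on 3B and from 430 to 523 bp on 3D.

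The share of wide peaks, of 1 kb or more, did not differ detectably between group 3 and the rest after adjustment. Wide peaks numbered 931 on 3A (3.64%, Wilson interval 3.42 to 3.88%), 994 on 3B (3.75%, 3.53 to 3.99%) and 689 on 3D (3.45%, 3.21 to 3.72%), against a background of 3.82% on the other 18 chromosomes. 3B and 3D had the lowest share of their subgenomes, and 3A ranked 5th of 7. Averaged over chromosomes, the share was 3.62 ± 0.151% on group 3 (SD, n = 3) and 3.80 ± 0.234% on the others (SD, n = 18). The difference of −0.188 percentage points was negative on 3 of 3 chromosomes and had p = 0.0233 in the exact permutation test. It did not pass after adjustment over the 9 measures (adjusted p = 0.210, exact permutation test). With draws over all 21 chromosomes the exact test gave p = 0.203, and with a limit of 800 bp the difference was −0.0641 points (exact permutation test, p = 0.615). Without 4A the difference was −0.188 points (exact permutation test, p = 0.0340, adjusted p = 0.291). With peaks at an FDR below 1e-10 it was −0.395 points (exact permutation test, p = 0.210).

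The widest peaks were of modest strength. On 3A they lay at 81473471–81475468 (1998 bp, fold enrichment 6.10) and 367986485–367988253 (1769 bp, 6.64). On 3B they lay at 401512538–401514369 (1832 bp, 5.99) and 47948500–47950307 (1808 bp, 6.03), and on 3D at 276197427–276199328 (1902 bp, 5.63) and 613952277–613954108 (1832 bp, 5.37). Across peaks of a chromosome, width and fold enrichment were only weakly related, with Spearman's rho of 0.299 on 3A, 0.282 on 3B and 0.295 on 3D. Width and pileup were more closely related, with rho of 0.402 on 3A, 0.424 on 3B and 0.404 on 3D. Peaks are not independent of one another, so no p is given.

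Strong peaks were most frequent at intermediate to large widths. A fold enrichment above 10 was reached by 0.205% of peaks under 250 bp on 3A, 0.479% on 3B and 0.315% on 3D. From 700 bp to under 1 kb the shares were 4.70% (3A), 4.63% (3B) and 4.38% (3D), the highest of the width classes on each. Peaks of 1 kb or more had lower shares of 3.76% (931 peaks on 3A), 2.52% (994 on 3B) and 3.48% (689 on 3D). No intervals were computed for these classes, so whether the fall exceeds counting error on each chromosome was not tested. The median background at the summit was higher in the widest class, at 1.46 tags on 3A, 1.51 on 3B and 1.51 on 3D, against 0.704 (3A), 0.651 (3B) and 0.669 tags (3D) in the narrowest. Fold enrichment divides by that background, so these measures are not independent.

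**Figure D4:**
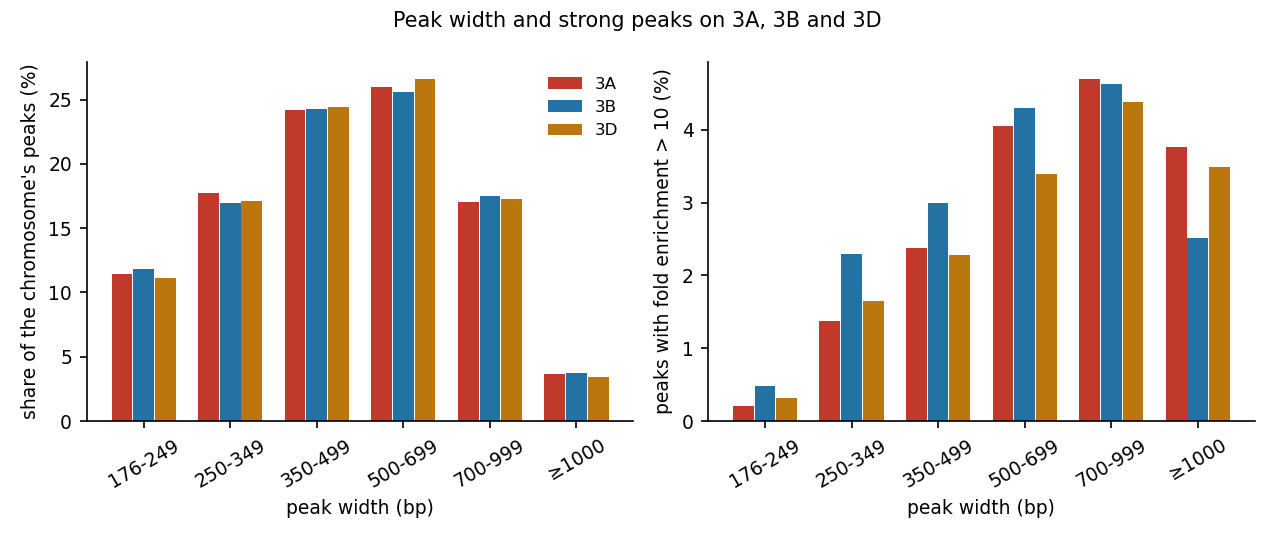
The left panel gives the percentage of peaks of 3A, 3B and 3D in each class of width in bp, and the right panel the percentage of peaks in that class with a fold enrichment above 10. The right-hand bars are highest from 700 bp to under 1 kb (4.70, 4.63 and 4.38%) and lower for peaks of 1 kb or more.

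Spacing was likewise close to that of the rest of the genome. From the end of a peak to the start of the next, the median distance was 19951 bp on 3A, 20793 bp on 3B and 20938 bp on 3D. The middle 50% of distances spanned 9702 to 38615 bp on 3A, 9944 to 40067 bp on 3B and 9980 to 40729 bp on 3D. The median of 3B was the longest of the B chromosomes. Group 3 averaged 20561 ± 533 bp (SD, n = 3) and the other chromosomes 20490 ± 495 bp (SD, n = 18). The difference of 70.9 bp was well within the spread (exact permutation test, p = 0.767, adjusted p = 0.902).

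Long distances between neighbours were about as common as elsewhere. Distances above 100 kb made up 2.79% of those on 3A (714), 3.66% on 3B (969) and 3.45% on 3D (689), against a background of 3.34% on the other 18 chromosomes. Distances above 500 kb were rare, with 2 on 3A (0.0078%), 11 on 3B (0.0415%) and 3 on 3D (0.0150%), against a background of 0.0309%. The count on 3B ranked 4th of the B chromosomes, whose other members held 6 to 20. The longest on 3A was 705338 bp, at 284614665–285320002, and the longest on 3D was 924487 bp, at 570869677–571794163. These ranked 17th (3A) and 10th (3D) among the longest distances of the 21 chromosomes, and that of 3B ranked 3rd.

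Neighbours under 2 kb apart made up 4.61% of neighbouring pairs on 3A (1177 pairs, Wilson interval 4.35 to 4.87%), 5.04% on 3B (1335 pairs, 4.78 to 5.31%) and 4.67% on 3D (931 pairs, 4.38 to 4.97%), against a background of 4.66% on the other 18 chromosomes. The 3D share was the highest of the D chromosomes. Group 3 averaged 4.77 ± 0.235% (SD, n = 3) and the others 4.64 ± 0.253% (SD, n = 18), a difference of 0.130 percentage points that did not pass the exact permutation test (p = 0.122, adjusted p = 0.367). Runs of 3 peaks under 2 kb apart occurred 17 times on 3A, 15 times on 3B and 12 times on 3D, and 3B held 1 run of 4. Distances from 2 to 5 kb were less frequent than those from 5 to 8 kb, with 3.81% against 10.9% on 3A, 3.77% against 10.3% on 3B and 4.25% against 10.3% on 3D. The other 18 chromosomes had the same order, with means of 3.87% and 10.5%.

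Peaks with a close neighbour were narrower than peaks without one and less often reached a fold enrichment above 10. On 3A their median width was 371 bp, against 492 bp for peaks standing apart, with 382 against 493 bp on 3B and 377 against 495 bp on 3D. A fold enrichment above 10 was found in 1.63% of them on 3A, against 2.95% apart. On 3B the shares were 1.85% and 3.33%, and on 3D 1.46% and 2.77%. The Wilson intervals of peaks near and apart did not overlap on any of the 3 chromosomes, but they count each peak as independent. Near peaks come with a neighbour by definition, so the intervals only describe the list and no p is given. The background at the summit was at its lowest value, 0.621 tags, in 6.76% of near peaks on 3A, against 22.3% of those apart, in 6.82% against 24.2% on 3B and in 7.35% against 23.6% on 3D. The part of this higher background in the difference was not tested. For a pileup of 20 tags or more the shares lay closer together and the order turned on 3B, at 6.80% of near peaks on 3A, against 7.86% apart, 8.82% against 8.61% on 3B and 7.03% against 7.27% on 3D. For a fold enrichment above 10, the other 18 chromosomes showed the same order as group 3, at 1.43% near and 3.04% apart.

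Fold enrichment was close to the authors' lower limit of 5 for most peaks. The median was 6.17 on 3A, 6.20 on 3B and 6.17 on 3D, with upper quartiles of 7.29 (3A), 7.33 (3B) and 7.27 (3D). Group 3 medians averaged 6.18 ± 0.0173 (SD, n = 3), and the others 6.19 ± 0.0211 (SD, n = 18), which did not differ detectably (difference −0.0063, exact permutation test, p = 0.388, adjusted p = 0.698). The pileup behind these values was small. Its median was 12 tags on each chromosome, with quartiles at 10 and 15, and 92.1% of group 3 peaks rested on fewer than 20 tags. Fold enrichment of a single peak therefore moves in coarse steps.

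Strong peaks, with a fold enrichment above 10, numbered 724 on 3A (2.83%, Wilson interval 2.64 to 3.04%), 843 on 3B (3.18%, 2.98 to 3.40%) and 529 on 3D (2.65%, 2.44 to 2.88%). The background on the other 18 chromosomes was 2.89%, and the 2096 strong peaks of group 3 made up 2.91% of its peaks. The shares of 3B and 3D had separate intervals, while that of 3A overlapped both. 3B had the second highest share of the B chromosomes, and 3A (sixth) and 3D (seventh) were low in theirs. The mean was 2.89 ± 0.270% on group 3 (SD, n = 3) and 2.88 ± 0.163% on the others (SD, n = 18). Their difference of 0.0055 percentage points was far inside the spread (exact permutation test, p = 0.962, adjusted p = 0.962). A pileup of 20 tags or more was found at 7.76% of 3A peaks, 8.63% of 3B peaks and 7.24% of 3D peaks, against 8.04% on the other 18 chromosomes.

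A few group 3 peaks ranked among the strongest of the list. The peak at 241590907–241591246 on 3B had a fold enrichment of 35.3 from 109 tags, the 2nd highest of all peaks. The peak at 559909358–559909869 on 3D had 33.3 from 196 tags and ranked 3rd. On 3B they were followed by 703862713–703863242 (27.1, 87 tags) and 704483771–704484032 (23.8, 42 tags), less than 1 Mb apart. On 3D the next were 604112518–604113157 (27.6, 159 tags) and 83106558–83106832 (27.3, 73 tags). The highest on 3A were lower, with 24.4 from 86 tags at 697101834–697102254, 21.1 from 52 tags at 660324726–660325068 and 21.1 from 36 tags at 681903800–681904102. All 3 lay in the last 20% of 3A. A fold enrichment above 20 was reached by 3 peaks on 3A, 9 on 3B and 9 on 3D, together 0.0292% of group 3 peaks, against a background of 0.0353% on the other 18 chromosomes.

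By 10 Mb bin, the share of strong peaks varied several-fold and was often highest near a tip. On 3A it was lowest at 70–80 Mb (0.901%) and highest at 0–10 Mb (8.05%). On 3B it was lowest at 690–700 Mb (0.651%) and highest at 820–830 Mb (8.71%), and on 3D it was lowest at 130–140 Mb (0.654%) and highest at 590–600 Mb (5.49%). The bins with the highest share on 3A and 3B had fewer peaks than the median bin of their chromosome. The lowest shares rested on 3 strong peaks of 333 on 3A, 2 of 307 on 3B and 2 of 306 on 3D.

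Each homoeologue had a higher share of strong peaks at its ends than between them. In the outer 10% of length at each end, the share was 4.05% on 3A, against 2.52% in between. It was 4.26% at the ends of 3B, against 2.89% in between, and 3.77% at the ends of 3D, against 2.37%. A pileup of 20 or more tags also was more frequent at the ends, with 9.74% against 7.26% on 3A, 10.4% against 8.15% on 3B and 9.25% against 6.73% on 3D. The background was at its lowest value for similar shares of peaks at the ends and in between, at 22.1% against 20.6% on 3A, 23.5% against 22.2% on 3B and 21.8% against 22.2% on 3D. Density at the ends was 34.4 peaks per Mb on 3A (34.0 in between), 33.9 on 3B (31.4) and 32.9 on 3D (32.3).

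The excess at the ends was 1.43 ± 0.0795 percentage points on group 3 (SD, n = 3) and 0.871 ± 0.525 on the other chromosomes (SD, n = 18). It exceeded the mean of the other chromosomes of its subgenome on 3 of 3 chromosomes. The difference of 0.563 points did not pass the exact permutation test (p = 0.0641, adjusted p = 0.289). Several other chromosomes reached or passed the group 3 values, with a range of −0.0033 to 1.71 points. When each chromosome was cut into 10 equal parts, the first had 3.89% strong peaks on 3A, 3.81% on 3B and 3.68% on 3D, and 3.42 ± 0.542% on the other chromosomes (SD, n = 18). The 5th part had 2.12% on 3A, 2.39% on 3B and 2.04% on 3D, and 2.56 ± 0.385% on the others. The last part had 4.20% on 3A, 4.67% on 3B and 3.86% on 3D, and 3.75 ± 0.654% on the others.

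**Figure D5:**
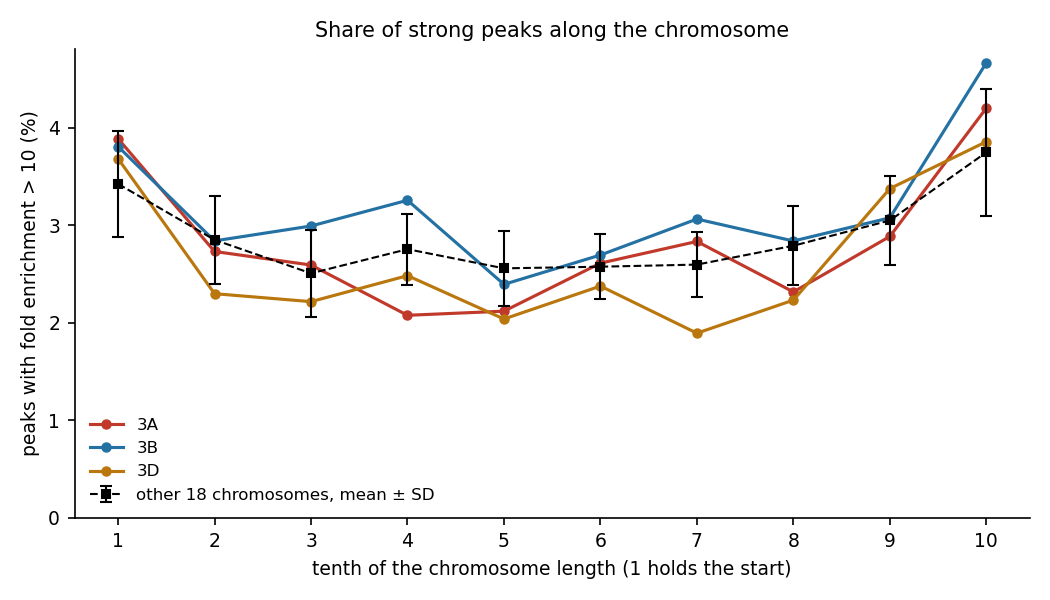
Lines give the percentage of peaks with a fold enrichment above 10 in 10 equal parts of the length of 3A, 3B and 3D, and black squares give the mean and SD over the other 18 chromosomes. The coloured lines are highest in the first and last parts (3.68 to 3.89% and 3.86 to 4.67%), and the black squares follow the same course.

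Of all peaks that the caller had numbered, the list kept 41.7% on 3A, 43.4% on 3B and 41.9% on 3D, if every number was given once. Numbered peaks were denser on 3A (81.6 per Mb) than on 3D (77.3) and 3B (73.5). The order of 3B and 3D in kept peaks, 31.9 and 32.4 per Mb, was the same as in numbered peaks, with a smaller distance between them.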

How the data were processed

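DAP-seq with MBP-tagged TaCCA1-7D was performed by the authors on DNA of the cultivar Fielder. Reads were trimmed with Trimmomatic, aligned to the Ensembl wheat genome with Bowtie2 2.3.4, filtered on mapping quality with SAMtools 1.9 and cleared of duplicates with Picard, and peaks were called with MACS2. The authors' limits were 5 for the fold enrichment and 1e-5 for the FDR. The methods do not state whether the libraries were pooled or which control was used. The deposited list gives other columns (position, peak number and summit offset), a whole-number score, the fold enrichment (a linear ratio), the −log10 p-value and the −log10 q-value, all computed by the authors. Depth of each library cannot be read from it.

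For each peak, the whole-number pileup and the background were solved from the deposited −log10 p-value and fold enrichment, with a pseudocount of 1 and a Poisson distribution. Simulated data were used to test the method, and on the list the misfit stayed under 0.0001 for 100.0% of the values. Chromosome length was taken up to the last peak. Group 3 was compared with the other 18 named chromosomes by exact two-sided permutation, drawing 1 of 7 chromosomes from each subgenome, with Benjamini-Hochberg adjustment over 9 measures. Shares have Wilson intervals and counts have exact Poisson intervals.

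The regions to be named were, on each chromosome, the 3 strongest peaks by fold enrichment, the 2 widest, the densest and sparsest 10 Mb bin, the bins with the highest and lowest share of strong peaks, and the longest distance between neighbours, together with the study's gene on group 3. The members, measures and lists were chosen with earlier results of these data known. Alternatives were other limits on fold enrichment, FDR, width, distance, pileup, bin and end length, other numbers of fractions, draws over all 21 chromosomes and leaving out 4A. Leaving out the sparsest bin or the last 1 Mb of 3B was added after the data had been seen. The gene table at hand is of another assembly and was not used. Python 3.11.15, numpy 2.4.6, pandas 2.3.3, scipy 1.17.1 and matplotlib 3.10.9 were used.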

Additional observations from a re-analysis of the deposited data

How the results depend on the processing

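For the 9 comparisons of group 3 with the other chromosomes, 44 alternative values were computed in all, 3 to 7 for each measure, and none passed the threshold (adjusted p from exact permutation tests 0.157 to 0.997). In 9 of the 44 only the test changed, which drew from all 21 chromosomes, so the difference and its direction could not turn. The direction held in 36, these 9 included, and turned in 8. With peaks at an FDR below 1e-10, the difference was −0.0717 peaks per Mb in density, 0.0428 in bin dispersion, 1.78 bp in median width and −0.0555 percentage points in close neighbours. With peaks above a fold enrichment of 10, it was 0.339 in bin dispersion (p = 0.0350, adjusted p = 0.157 from the exact test) and 1.00 bp in width. The difference in strong peaks was −0.119 points with a limit of 8 and −0.114 points with a pileup of 20 tags or more as the limit. Group 3 held 2096 peaks above a fold enrichment of 10 and 14035 at an FDR below 1e-10. The median r between the homoeologues' profiles was 0.386 at that FDR, against 0.125 in the full list. The cause of these shifts was not tested. Without the sparsest bin of 3B, the density difference was 0.184 and the dispersion difference −0.685. No paired analysis was possible because the list does not separate the libraries.

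A single list without values per library limits every comparison: it gives no replicate error, and most peaks rest on few tags. Densities are per Mb of assembly, since the mappable length was not used here. Tests over 3 chromosomes can show only differences that are large beside the spread among the other chromosomes.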
